A study of Homo sapiens with 36 samples.

Results

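The comparison described here is serine/glycine deprivation of A2780 cis SSP cells. A2780 is a human ovarian cancer cell line, cis is its derivative with acquired resistance to cisplatin, and the labels call cis SSP a cis line that regained activity of the serine synthesis pathway in medium lacking both amino acids. Per the study's methods, cis SSP cells grew out of cis cells after prolonged culture without serine and glycine and were also grown in complete medium. The libraries were taken by their treatment label: cis SSP (libraries 25, 26 and 27, complete medium, no carboplatin) and cis SSP -SG (libraries 31, 32 and 33, medium without serine and glycine, no carboplatin). These are 6 of the 36 libraries of a series that has 12 conditions of 3 libraries each. For values side by side, carboplatin-treated cis SSP cells (libraries 28 to 30 in complete medium, 34 to 36 without serine and glycine) and cis cells (libraries 13 to 15 and 19 to 21) were also used. The cells of both compared media share the cisplatin-resistant background and an earlier adaptation to deprivation, so a cis SSP library in complete medium is not an unadapted control. The study's RNA-seq methods do not give the order of the media or the time spent in each. Deprivation and its response below therefore name the contrast of -SG over complete medium. The line stands for 1 outgrowth of 1 parental line, and the study calls the libraries of a condition technical replicates. Every p-value below therefore measures the spread between libraries and not between independent cultures. RNA was sequenced in single-end reads of 65 bases and the files hold raw read counts per gene. In bulk RNA, fewer cells of a kind and less RNA per cell cannot be told apart.

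Serine is made from the glycolytic intermediate 3-phosphoglycerate by PHGDH, PSAT1 and PSPH in turn, and is converted to glycine and one-carbon units by the serine hydroxymethyltransferases. Cells short of an amino acid accumulate uncharged tRNA, which activates the kinase GCN2 (gene EIF2AK4). GCN2 phosphorylates the initiation factor eIF2, general translation falls and translation of the transcription factor ATF4 rises. ATF4 is known to drive genes of amino acid synthesis, amino acid import and tRNA charging, the serine synthesis genes among them.

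The 6 libraries held between 14455766 and 20062084 reads on genes. Libraries 25 and 32 stood apart from the other libraries of their own condition, and they did so in the same way. In library 25 the median log2 ratio over libraries 26 and 27 ran from 0.72 in the tenth of genes with the shortest exons (median summed exon length 1634 bases) to -0.61 in the tenth with the longest (15719 bases). In library 32 the corresponding ratios over libraries 31 and 33 were 0.73 and -0.60. Libraries 26 and 27, and libraries 31 and 33, stayed within 0.04 of each other in every length bin. Across 10996 genes, which are not independent replicates, the deviation of library 25 and that of library 32 had a Pearson r of 0.966. Each condition holds 1 such library, so the 4 other libraries compare the media with neither of them, and library 32 against library 25 compares the media within the pair.

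**Figure D1:**
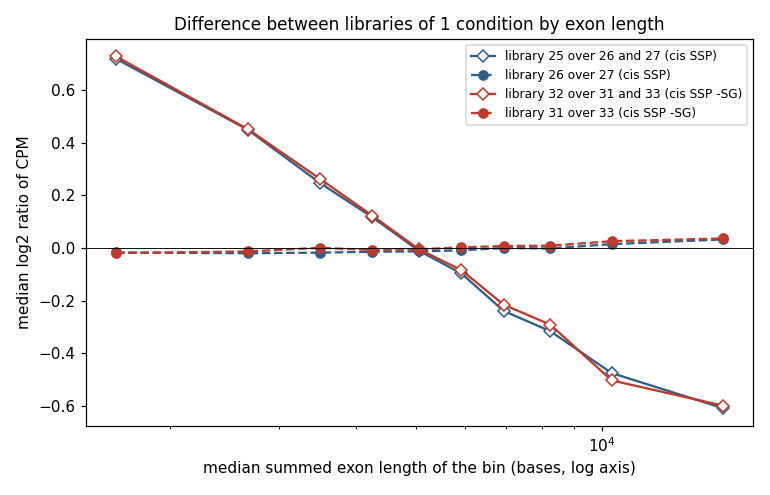
Median log2 ratio of CPM between libraries of 1 condition (vertical axis) in 10 bins of genes by summed exon length (horizontal axis, log scale, bases). Libraries 25 and 32 (open diamonds) fall together from about 0.72 and 0.73 to -0.61 and -0.60, whereas libraries 26 and 31 (filled circles) stay near 0 against the remaining library of their condition.

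With all 6 libraries, edgeR's quasi-likelihood test called 3 of 13736 genes (0.0218% of the genes tested) at an adjusted p below 0.05, all 3 higher without serine and glycine, and 907 genes had an unadjusted p under 0.05. DESeq2 called 105 genes in the same libraries, and leaving out any 1 of the 6 libraries left 0 genes called by edgeR, with 510 to 1303 genes at an unadjusted p under 0.05. Without libraries 25 and 32 the same test called 4996 of 13925 genes (35.9%; 2207 by DESeq2), of which 2625 were higher (18.9% of the genes tested) and 2371 lower (17%). Scaled by total counts in place of TMM, 1504 were higher and 3801 lower, the median of all genes moving from -0.0022 to -0.08 on the log2 scale, and none of the 119 genes named below as higher or lower changed sign, although 2 of them, IARS2 and KIF20A, were no longer called. With a length trend as an offset FARSA and MANF were no longer called. With all 6 libraries and a term that set libraries 25 and 32 apart, 5561 of 13736 genes were called (40.5%). The common dispersion was 0.0682 in the first fit, 0.00095 in the second and 0.000964 in the third. Of the 13652 genes tested in both of the last fits, 4574 were called in both and all of these had the same direction. Libraries 25 and 32 took no part in the fit of the other 4, and their own ratio had the same sign for 4401 of 4667 called genes (94.3%). In the following, a gene is said to be higher or lower, to have risen or fallen, if it was called without libraries 25 and 32, a choice made with the shift of these libraries known; log2 fold changes are then from that fit, given as -SG over complete medium with their standard errors, and CPM are counts scaled to library sizes normalised by TMM, edgeR's trimmed mean method. Except for the 3 genes named as called with all 6 libraries, no tested gene of the pathway lists passed edgeR's test in the fit of all 6 libraries that had no term for the shifted ones.

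All 3 enzymes of serine synthesis rose on deprivation, from levels that were already measurable in complete medium. PHGDH (ENSG00000092621, chr1:120191034-120286841, GRCh37), which catalyses the first step, was at 391, 268 and 279 CPM in libraries 25, 26 and 27 and at 544, 780 and 531 CPM in libraries 31, 32 and 33. The groups did not overlap, and the highest library of each was the shifted one. The log2 fold change was 0.96 ± 0.03 (SE; adjusted p = 7.14e-21, edgeR), against 0.97 ± 0.23 with all 6 libraries (adjusted p = 0.435). PSAT1 (ENSG00000135069, chr9:80912041-80945009), the aminotransferase of the second step, was at 638, 650.1 and 649 CPM in complete medium and at 1569, 1554 and 1540.5 CPM without serine and glycine. Here library 25 lay slightly below the others of its group, and library 32 lay between the others of its own. The change was the largest of the 3 enzymes (1.25 ± 0.02, adjusted p = 1.21e-24, edgeR, and 1.26 ± 0.12 with all 6 libraries, adjusted p = 0.0788). PSPH (ENSG00000146733, chr7:56078744-56119297), the phosphatase that releases serine, was at 84.6, 68.9 and 69.3 CPM and rose to 126, 149 and 125 CPM (0.86 ± 0.04, adjusted p = 9.27e-16; 0.84 ± 0.14 with all 6 libraries, adjusted p = 0.244). Library 32 exceeded library 25 by log2 0.81 to 1.28 for the 3 genes.

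**Figure D2:**
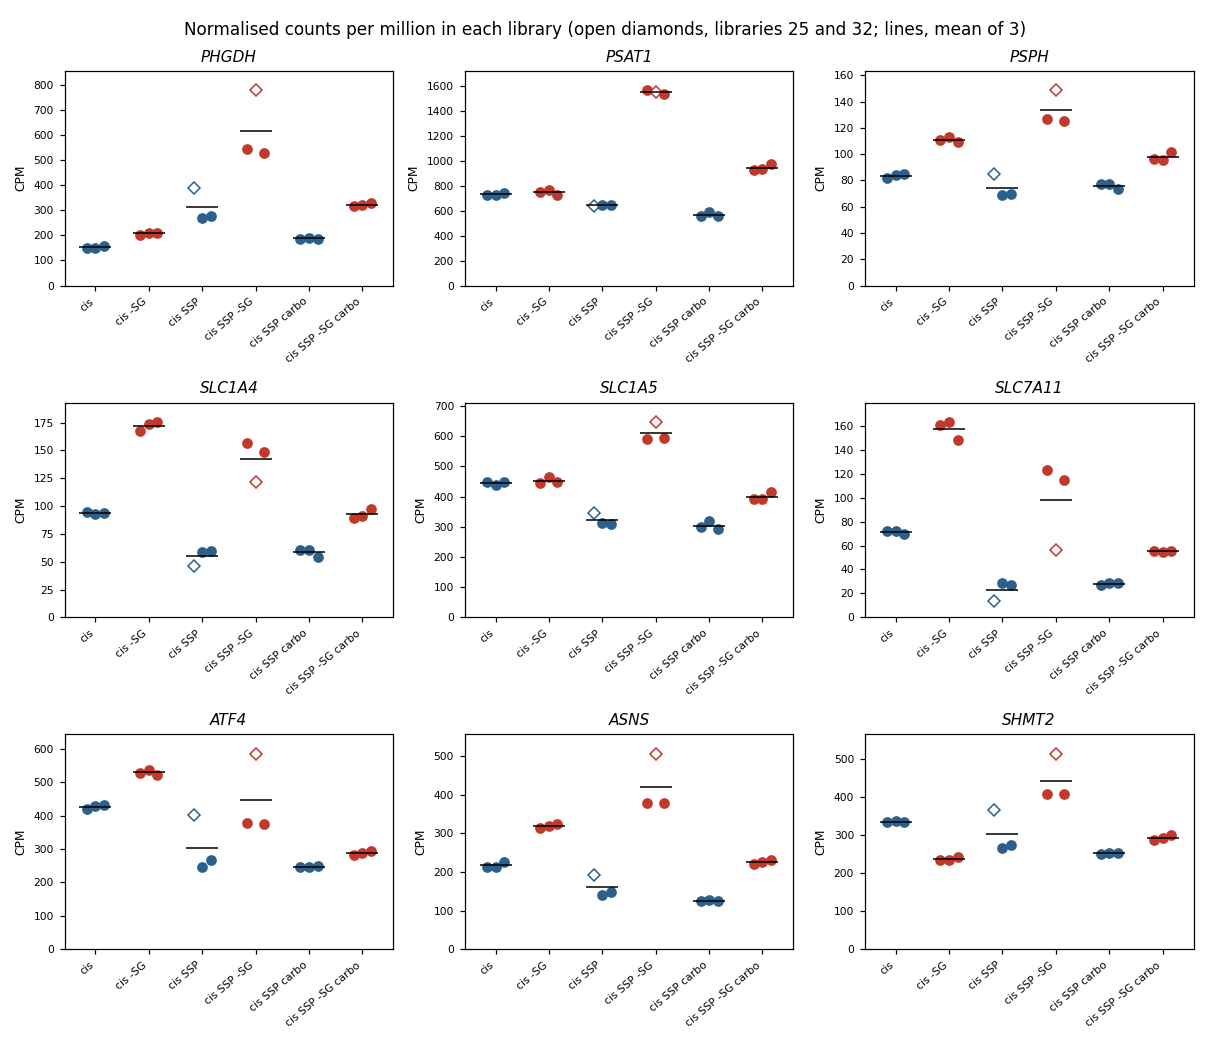
TMM-normalised CPM (vertical axes, from 0) of 9 genes in each library of cis, cis SSP and carboplatin-treated cis SSP cells in complete medium (blue) and without serine and glycine (red). Open diamonds are libraries 25 and 32 and black lines the mean of 3 libraries; PSAT1 reached 1540.5 to 1569 CPM in cis SSP -SG cells but 730.3 to 765 CPM in cis -SG cells.

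The response of PSAT1 set cis SSP cells apart from cis cells. In cis cells PSAT1 was at 727, 728 and 745 CPM in complete medium and at 751, 765 and 730.3 CPM without serine and glycine, which did not pass the test (log2 0.06, adjusted p = 0.0502). The test of the difference of the deprivation response between cis SSP and cis cells called 2533 of 14806 genes over 12 libraries (17.1%) and 8341 of 15057 without libraries 25 and 32 (55.4%). PSAT1 passed both (log2 difference 1.21 ± 0.10, adjusted p = 5.68e-05, and 1.19 ± 0.04, adjusted p = 2.02e-28). PHGDH rose in cis cells as well (0.47; 75% of 14122 genes tested were called there), with 149.5 to 158 CPM in complete medium and 203 to 211 CPM without serine and glycine, and the difference from cis SSP cells was 0.49 ± 0.04 without libraries 25 and 32 (adjusted p = 3.83e-13) and 0.51 ± 0.26 with them (adjusted p = 0.224). In complete medium cis SSP cells thus held more PHGDH mRNA than deprived cis cells did, 268 to 391 CPM against 203 to 211 CPM.

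Amino acid carriers rose with the enzymes. Of 15 transporters tested, 12 were higher and 1 lower, beside 18.9% higher and 17% lower of all genes tested. Their median log2 fold change was 0.71, beside -0.0022 over all genes tested. Library 32 exceeded library 25 for all 12 that rose, beside 94.3% of 4667 called genes that kept their sign. Of the 12, 7 did not overlap between the groups of 3 libraries. Non-overlap held for 14.1% of all genes tested, called or not. That share is no background for the 12, because the libraries that called them also decide overlap. Whether 7 of 12 exceeds the share among called genes was not tested. SLC7A11, the cystine/glutamate antiporter, was at 13.4, 28.8 and 27 CPM in complete medium and at 123, 56.5 and 115 CPM without serine and glycine (2.09 ± 0.05, adjusted p = 1.34e-21). The shifted library was the lowest of each group, and the groups remained apart. SLC1A4, the neutral amino acid carrier ASCT1 that takes up serine, went from 46.2, 58.3 and 59.5 CPM to 157, 122 and 148 CPM (1.36 ± 0.04, adjusted p = 2.70e-20). SLC1A5, the glutamine and serine carrier ASCT2, went from 345, 311.5 and 310.5 CPM to 592, 647 and 593 CPM (0.92 ± 0.03, adjusted p = 6.15e-21).

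Subunits of the large neutral amino acid carrier rose too, SLC7A5 by 0.90 and its heavy chain SLC3A2 by 0.73. The cationic carrier SLC7A1 rose by 0.79 and the glycine carrier SLC6A9 by 0.75. The glutamine carriers SLC38A2 and SLC38A1 rose by 0.48 and 0.46, and for both the groups overlapped because the shifted libraries were low. The lysosomal carrier SLC36A1 was lower (-0.18). SLC7A6, a dibasic amino acid carrier, did not pass the test at 30.4, 64.4 and 65.1 CPM against 63.5, 29.3 and 62.4 CPM (log2 -0.05, adjusted p = 0.458). SLC1A5 was at 438 to 449 CPM in cis cells and at 446 to 466 CPM in cis -SG cells, and its response differed from that in cis SSP cells (log2 difference 0.87 ± 0.12, adjusted p = 0.000977, 12 libraries). For SLC1A4 the difference was 0.46 ± 0.05 without libraries 25 and 32 (adjusted p = 6.61e-10) and 0.48 ± 0.15 with them (adjusted p = 0.0587).

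Genes of the ATF4 pathway formed the group with the highest median change. Of 32 tested, 29 were higher and 1 lower, with a median log2 fold change of 1.11, beside 18.9% higher and 17% lower of all genes. Library 32 exceeded library 25 for all 29, and 18 of these 29 did not overlap between the groups. Of 4667 called genes 94.3% kept their sign in that ratio, and 14.1% of all genes tested, called or not, did not overlap. As for the transporters, the 14.1% is no background for called genes. Of 31 ATF4 pathway genes tested with all 6 libraries, 3 were called, and these were the only genes called in the whole table by that fit. INHBE (ENSG00000139269, chr12:57846106-57853063), the inhibin beta E subunit, was at 15.4, 13.8 and 13.8 CPM in complete medium and at 69.6, 63.7 and 71.3 CPM without serine and glycine. Its log2 fold change was 2.24 ± 0.12 with all 6 libraries (adjusted p = 0.0219) and 2.34 ± 0.06 without the shifted ones. VLDLR (ENSG00000147852, chr9:2621182-2660056), a lipoprotein receptor, went from 20.9, 21.1 and 22 CPM to 78.3, 64.9 and 70.6 CPM (1.73 ± 0.13, adjusted p = 0.0408; 1.78 ± 0.06). STC2 (ENSG00000113739, chr5:172741726-172755450), the secreted glycoprotein stanniocalcin 2, went from 38.6, 40.5 and 40.8 CPM to 127, 128 and 129.9 CPM (1.67 ± 0.11, adjusted p = 0.0298; 1.65 ± 0.05). For these 3 genes the shifted libraries lay close to the others, and the groups did not overlap.

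The mRNA of ATF4 itself was at 400.4, 246 and 267 CPM in complete medium and at 378, 585 and 374 CPM without serine and glycine, so the groups overlapped through library 25. It rose by 0.55 ± 0.03 (adjusted p = 1.32e-12) and library 32 exceeded library 25 in the same direction. With all 6 libraries the value was 0.54 ± 0.27 (adjusted p = 0.895). ASNS, asparagine synthetase, went from 191, 141 and 149 CPM to 379, 506 and 378 CPM (1.38 ± 0.03, adjusted p = 6.61e-23). The pseudokinase TRIB3 went from 76.3, 62.5 and 64.0 CPM to 187, 254 and 189 CPM, and the glutathione-degrading CHAC1 from 33.2, 22.9 and 22.2 CPM to 64.8, 95.7 and 68.0 CPM (1.56 ± 0.04 and 1.55 ± 0.06). In all 3 the groups were separate with the shifted libraries in them.

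**Figure D3:**
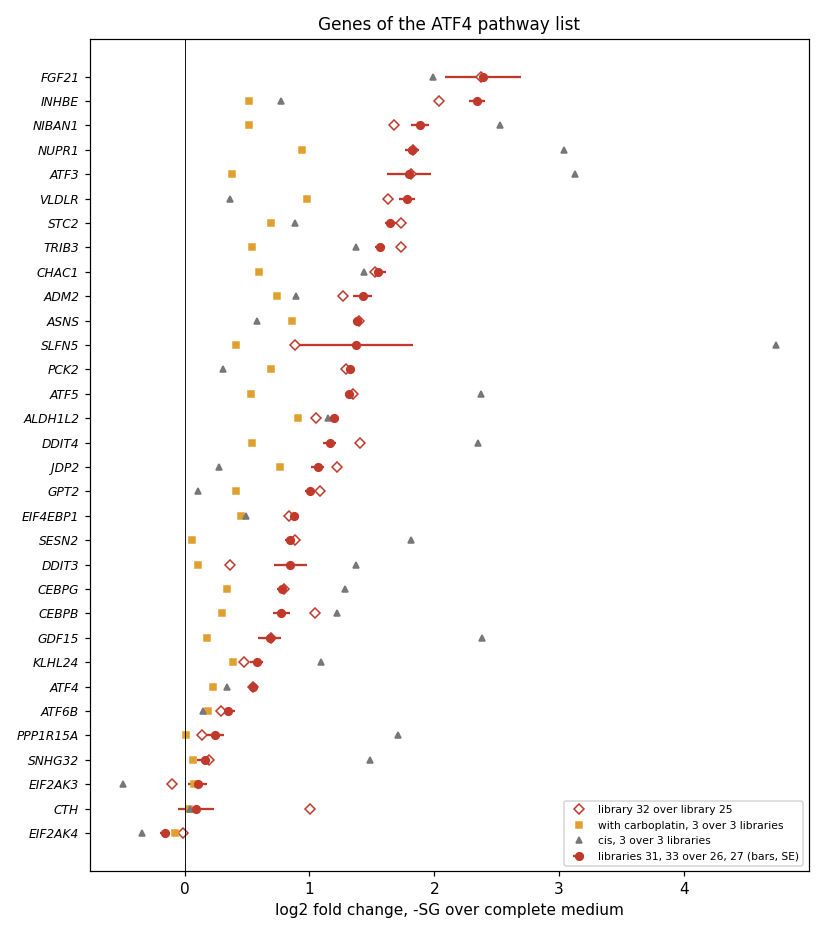
Log2 fold change, -SG over complete medium (horizontal axis), of each tested gene of the ATF4 pathway list (rows): libraries 31 and 33 over 26 and 27 (red circles, bars are SE), library 32 over 25 (open diamonds), carboplatin-treated cis SSP cells (orange squares) and cis cells (grey triangles). Of the 32 genes 29 were called to the right of 0 in the 4 libraries, beside 18.9% of all genes tested. Most squares lie nearer 0 than the circles, and the triangles lie on both sides of the circles.

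Further members of the list rose in each of its branches. Of the regulators, the stress cofactor NUPR1 rose by 1.82, ATF5 by 1.32, CEBPG by 0.78, CEBPB by 0.78 and DDIT3 (CHOP) by 0.85, and ATF3 rose by 1.80 with 1.70 to 2.44 CPM in complete medium and 6.23 to 8.75 CPM without serine and glycine. Of the enzymes, mitochondrial PEPCK (PCK2) rose by 1.32, the alanine aminotransferase GPT2 by 1.0 and the mitochondrial formyltetrahydrofolate dehydrogenase ALDH1L2 by 1.20. The inhibitors of mTORC1 signalling or of translation DDIT4, SESN2 and EIF4EBP1 rose by 1.16, 0.85 and 0.88. The hormone FGF21 stood at 0.539 to 0.636 CPM and reached 2.73 to 3.72 CPM, low levels throughout (2.39 ± 0.30). PPP1R15A, the phosphatase subunit that reverses eIF2 phosphorylation, moved by only 0.25. EIF2AK4, the GCN2 kinase, was lower (-0.16), and EIF2AK3, the kinase of the endoplasmic reticulum branch, did not pass the test (16.5, 21.2 and 20.9 CPM against 22.9, 15.4 and 22.5 CPM; 0.10, adjusted p = 0.301).

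Because members of these lists rose together, the promoters were searched for the letters TGATGNAA on both strands, the core of the C/EBP-ATF response element through which ATF4 is known to act. The windows run from 250 bases before to 50 after the start site in RefSeq's promoters of GRCh38.p14. The letters occurred in 3.67% of 27305 promoters and in 1.62% of the 10224 promoters of tested genes. They occurred in 2.71% of 2101 promoters of genes that rose, in 10.9% of the 64 that rose by at least 1 on the log2 scale and in 0.933% of 1822 that fell. By list, they were present in 6 of 16 cytosolic tRNA synthetase promoters (37.5%), in 3 of 17 of amino acid transport (17.6%), in 4 of 26 of the ATF4 pathway (15.4%), in 1 of 15 of one-carbon metabolism, in 1 of 25 of mitosis, in 0 of 19 of cholesterol synthesis and in 0 of 2 of serine synthesis. A match is a description of letters and not a measured binding site. The lists were chosen with earlier results of these data known and 1 is named for ATF4. A role of ATF4 in the rise was not tested. Windows were placed in GRCh37 for 13 genes of the lists, and 8 of these are given as examples. The windows of 8 genes that rose are shown with the match in capitals, 5′ to 3′ on the strand named, at their positions in GRCh37, the build of the counts:
ASNS, chr7:97501770-97501799, minus strand: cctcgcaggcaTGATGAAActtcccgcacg
CHAC1, chr15:41245449-41245478, minus strand: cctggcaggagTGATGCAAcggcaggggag
ATF3, chr1:212738547-212738576, plus strand: aaaggtcaggaTGATGGAAggctgtcatat
AARS1, chr16:70323578-70323607, plus strand: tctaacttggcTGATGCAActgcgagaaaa
IARS1, chr9:95055974-95056003, plus strand: gcgcacggaggTGATGCAAcgcgctgaaaa
MARS1, chr12:57881836-57881865, minus strand: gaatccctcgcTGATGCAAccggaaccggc
CARS1, chr11:3078637-3078666, plus strand: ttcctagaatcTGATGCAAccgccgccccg
SLC7A1, chr13:30169800-30169829, minus strand: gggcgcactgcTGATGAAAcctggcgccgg

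Cytosolic aminoacyl-tRNA synthetases, which attach amino acids to their tRNAs, rose while their mitochondrial counterparts mostly did not. Of 20 cytosolic enzymes 12 were higher and 3 lower (median 0.48), beside 18.9% higher and 17% lower of all genes tested. Of the 12, 11 did not overlap between the groups, as did 14.1% of all genes tested, called or not. That share is no background for called genes. GARS1, which charges tRNA with glycine in both compartments, was at 364, 315 and 324 CPM in complete medium and at 739, 838 and 722 CPM without serine and glycine (1.19 ± 0.03, adjusted p = 4.36e-23), the largest change of the list. CARS1 for cysteine went from 124, 110 and 105 CPM to 216, 239 and 209.6 CPM (0.98 ± 0.04). SARS1 for serine went from 252, 182 and 188 CPM to 322, 425 and 321 CPM (0.79 ± 0.03). Thus the synthetases for both withdrawn amino acids rose, but so did those for methionine (MARS1, 0.86), glutamate and proline (EPRS1, 0.81), tryptophan (WARS1, 0.77), alanine (AARS1, 0.60), asparagine (NARS1, 0.59), threonine (TARS1, 0.54), tyrosine (YARS1, 0.51), leucine (LARS1, 0.46) and isoleucine (IARS1, 0.45). FARSA and FARSB, the subunits for phenylalanine, and VARS1 for valine were lower by small amounts (-0.10, -0.17 and -0.16), and KARS1 for lysine did not pass the test (0.08, adjusted p = 0.0728). Of 17 mitochondrial synthetases 1 was higher (IARS2, 0.10) and 3 lower (CARS2, -0.32; HARS2, -0.21; LARS2, -0.13), with a median of -0.05. Scaled by total counts, 0 of the 17 were higher, as IARS2 was no longer called, and 8 were lower.

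The pathways that consume serine did not move as a group. In one-carbon metabolism and glycine cleavage, 4 of 20 genes were higher and 3 lower (median -0.06), near the 18.9% higher and 17% lower of all genes tested. The genes that rose most act in the mitochondrion: MTHFD2 (methylenetetrahydrofolate dehydrogenase), from 288, 278 and 287 CPM to 554, 562 and 557 CPM (0.97 ± 0.03), SHMT2 (mitochondrial serine hydroxymethyltransferase), from 367, 267 and 275 CPM to 407, 514 and 408 CPM (0.58 ± 0.03), and MTHFD1L (formyltetrahydrofolate synthetase, 0.51 ± 0.04). The cytosolic SHMT1 was lower (-0.15), as were the mitochondrial serine carrier SFXN1 (-0.22) and the folate carrier SLC19A1 (-0.30). SHMT2 moved the other way in cis cells, with 334 to 336 CPM in complete medium and 235 to 241 CPM without serine and glycine (-0.47), and the difference of response was 1.02 ± 0.20 over 12 libraries (adjusted p = 0.00668).

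The counts of the next lists stand beside 18.9% higher and 17% lower of all genes tested, and a count near these shares is not particular to a list. In the methionine cycle and transsulfuration 5 of 12 genes were higher and 1 lower (median 0.07), none of them by more than 0.24. CBS, which joins serine to homocysteine, rose by 0.20, and its near-identical copy CBSL is counted in no row, so that value is uncertain. In glutathione synthesis and the NRF2 response 8 of 13 were higher and 1 lower (0.12). NFE2L2, the gene of NRF2, went from 107, 100.7 and 98.7 CPM to 141, 145 and 143 CPM (0.50 ± 0.04) and GCLC, the catalytic subunit of glutamate-cysteine ligase, rose by 0.38. Of sphingolipid and phosphatidylserine genes 5 of 16 were higher and 0 lower, with KDSR (3-ketodihydrosphingosine reductase) at 53.7, 54.0 and 55.5 CPM against 80.6, 77.6 and 77.6 CPM (0.52 ± 0.05). Of purine and pyrimidine synthesis 6 of 20 were higher and 3 lower (0.03); GART, whose reactions use glycine and formyl groups, rose by 0.37 ± 0.03. Of NAD synthesis and PARP genes 1 of 13 was higher, the mitochondrial NAD kinase NADK2 (0.45), and 3 lower, among them PARP1 at 605, 654 and 646 CPM against 627, 587 and 624 CPM (-0.06 ± 0.02). Scaled by total counts, 3 genes were higher and 8 lower in one-carbon metabolism, 3 and 3 in the methionine cycle, 5 and 2 in glutathione synthesis, 1 and 2 in the sphingolipid list, 3 and 6 in purine and pyrimidine synthesis and 1 and 4 in the NAD list, and the medians of the methionine, sphingolipid, purine and NAD lists fell below 0.

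Genes of the endoplasmic reticulum moved in both directions. Of 22 genes of chaperones and the unfolded protein response 11 were higher and 6 lower (median 0.12), beside 18.9% higher and 17% lower of all genes tested. XBP1, a transcription factor of that response, went from 122, 90.8 and 90.0 CPM to 169, 261 and 184 CPM (0.95 ± 0.04), the degradation factor HERPUD1 rose by 0.66, the co-chaperone DNAJB9 by 0.56 and the sensor ATF6 by 0.56. HSPA5 (BiP), the main luminal chaperone, rose by 0.28 ± 0.02, whereas SDF2L1 (-0.76), CRELD2 (-0.31), MANF (-0.26) and PDIA4 (-0.18), which are secretory-pathway chaperones or folding factors, fell. In autophagy and lysosome genes 16 of 25 were higher and 1 lower (0.21). The receptors NBR1 (0.49) and SQSTM1 (0.46), the LC3 genes MAP1LC3B (0.49) and GABARAPL1 (0.66) and the kinase-complex genes ATG13 (0.47) and ULK1 (0.34) were among those that rose. Library 32 exceeded library 25 for 14 of the 16, a smaller share than the 94.3% of 4667 called genes that kept their sign. The transcription factor TFEB was lower at 1.06 to 4.45 CPM (-1.44 ± 0.26). Of 18 regulators of mTORC1 6 were higher and 1 lower (0.04), a share called near the 35.9% of all genes tested. Among those above 5 CPM, MLST8 (0.40) and NPRL3, a subunit of the GATOR1 inhibitor (0.28), rose most. The largest rise of the list, 0.56, was in a gene below that level. The groups of 3 libraries overlapped for MLST8 and not for NPRL3. Scaled by total counts, 7 were higher and 8 lower in the chaperone list, 12 and 2 in autophagy and 3 and 4 among the mTORC1 regulators, whose median turned to -0.03.

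**Figure D4:**
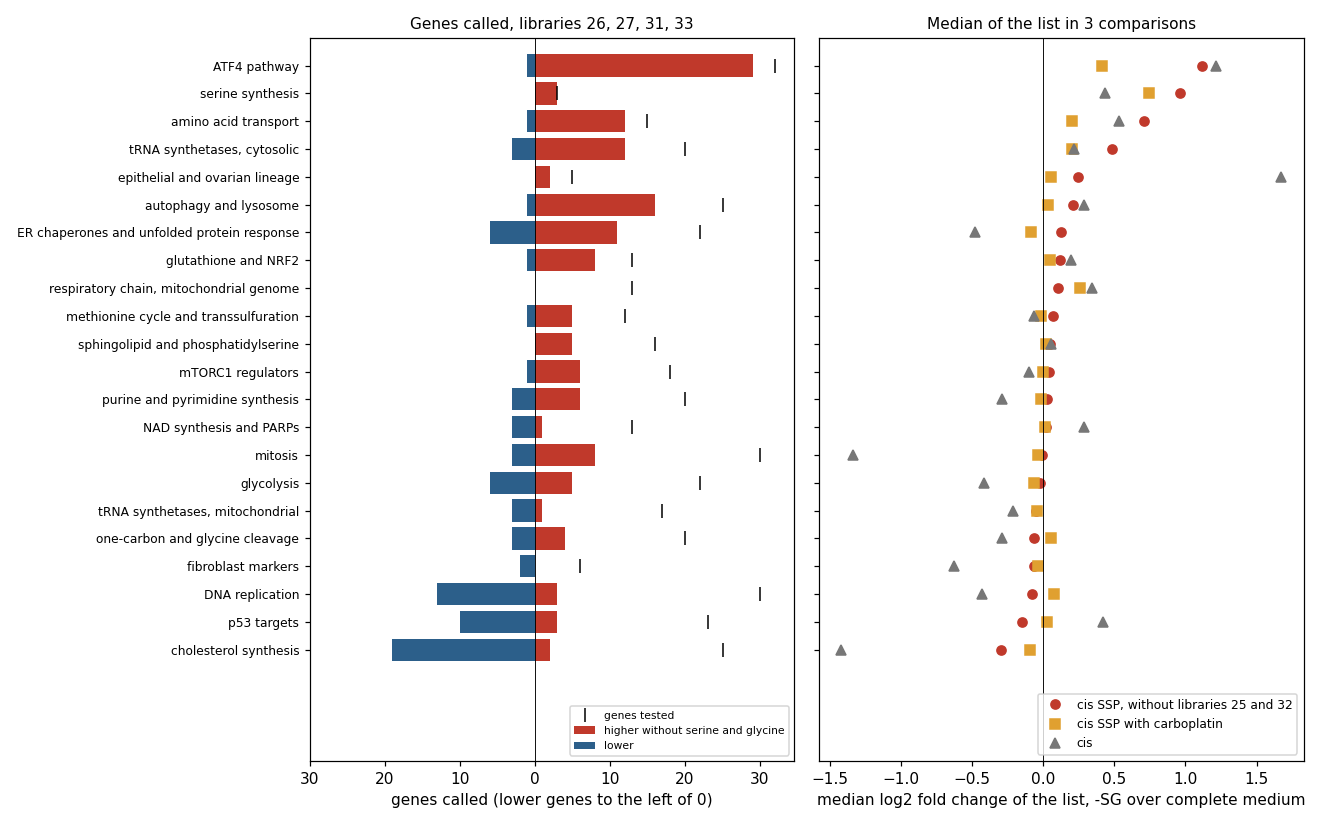
For each gene list (rows), the number of genes called higher (red, to the right) or lower (blue, to the left) in libraries 26, 27, 31 and 33 with the number tested (black ticks), and the median log2 fold change of the list in cis SSP cells without libraries 25 and 32, in carboplatin-treated cis SSP cells and in cis cells. The ATF4 pathway has the highest median (1.11) and cholesterol synthesis the lowest (-0.30) in cis SSP cells; the mitosis median is -0.01 there and -1.34 in cis cells.

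Sterol genes formed the main group that fell. Of 25 genes of cholesterol synthesis 19 were lower and 2 higher, with a median of -0.30, beside 17% lower and 18.9% higher of all genes tested. INSIG1, the sterol-regulated retention protein of the SREBP pathway, was at 59.7, 58.0 and 59.4 CPM in complete medium and at 37.3, 45.3 and 36.2 CPM without serine and glycine (-0.68 ± 0.05). The decarboxylase MVD fell by 0.71 on the log2 scale and the reductase DHCR7 by 0.50. The transcription factor SREBF2, which drives these genes, was higher (0.26). In library 32 over library 25, 18 of the 19 lower genes had the same sign, beside 94.3% of 4667 called genes. Squalene epoxidase, SQLE, did not pass the test (91.4, 84.8 and 86.8 CPM against 83.6, 87.9 and 80.5 CPM; -0.07). In cis cells 24 of 25 sterol genes were lower and 0 higher (median -1.42), beside 5281 lower and 5309 higher of all 14122 genes tested. The response differed for 23 of 25 without libraries 25 and 32, in 22 of them with the cis SSP value above the cis value. Over all genes, that difference was called for 55.4%, with 4331 of 15057 above.

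Proliferation genes fell in cis cells and moved in both directions in cis SSP cells. All 30 mitosis genes were lower in cis cells without serine and glycine (median -1.34), beside 5281 of all 14122 genes tested there. In cis SSP cells 8 of the 30 were higher, 3 lower and the rest did not pass the test (median -0.01), a share called that is near the 35.9% of all genes tested; scaled by total counts, 1 was higher and 11 lower. The difference of response was called for all 30 without libraries 25 and 32, each with the cis SSP value above the cis value (median 1.33). Over all genes, that difference was called for 55.4%, with 4331 of 15057 above. MKI67, the proliferation antigen Ki-67, was at 176, 595 and 524 CPM in cis SSP and at 616, 151 and 553 CPM in cis SSP -SG libraries, with the shifted libraries lowest in both (log2 0.06, adjusted p = 0.775), and its log2 fold change in cis cells was -2.03. The spindle checkpoint kinase BUB1 fell (-0.19) and the kinesin KIF20A rose (0.11) in cis SSP cells. DNA replication genes were lower for 13 of 30 and higher for 3 (median -0.08), among them the polymerase subunit POLD1 (-0.33) and the checkpoint adaptor CLSPN (-0.30), against 27 of 30 lower in cis cells (median -0.43). Of all genes tested in cis SSP cells without libraries 25 and 32, 17% were lower and 18.9% higher. Scaled by total counts, 20 replication genes were lower and 1 higher in cis SSP cells.

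**Figure D5:**
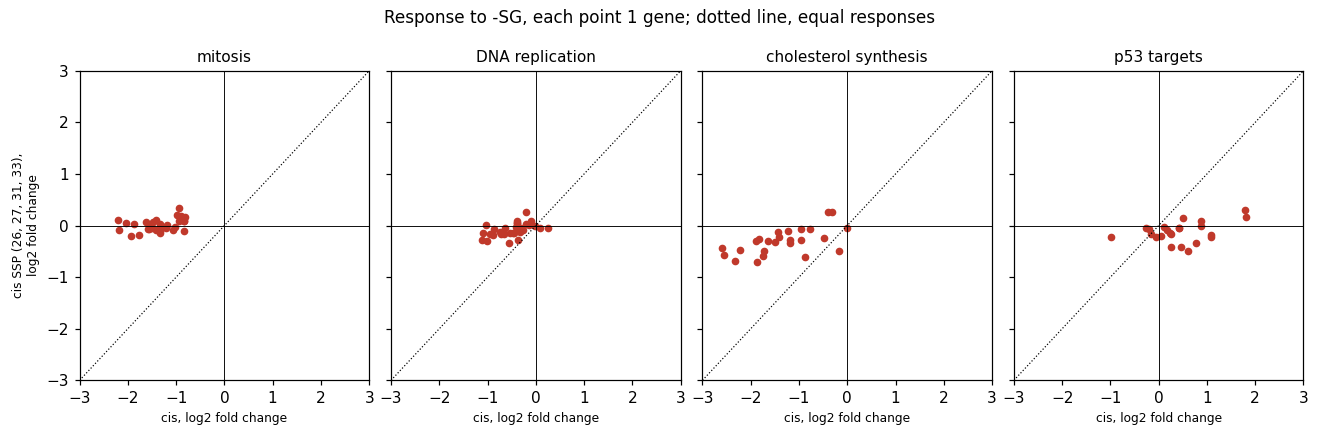
Log2 fold change, -SG over complete medium, in cis cells (horizontal axis) and in cis SSP cells without libraries 25 and 32 (vertical axis) for each gene (points) of 4 lists, with equal axes and a dotted line of equal responses. Mitosis genes lie left of 0 in cis cells and close to 0 in cis SSP cells, as their medians of -1.34 and -0.01 show.

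Of 23 targets of p53 tested in cis SSP cells 10 were lower, 3 higher and the rest did not pass the test (median -0.15). Of all genes tested there, 17% were lower and 18.9% higher. Scaled by total counts, 15 of the p53 targets were lower and 1 higher. Of 23 in cis cells 17 were higher and 4 lower (0.42), beside 5309 higher and 5281 lower of all 14122 genes tested there. The response differed for 21 of 23 without libraries 25 and 32, in 19 of them with the cis SSP value below. Over all genes, that difference was called for 8341 of 15057 (55.4%), 4331 with the cis SSP value above and 4010 below. BTG2, an antiproliferative factor, went from 56.8, 48.1 and 48 CPM to 34.1, 40 and 34.6 CPM in cis SSP cells (-0.49 ± 0.06). The cyclin-dependent kinase inhibitor CDKN1A fell by 0.34 on the log2 scale and had a log2 fold change of 0.77 in cis cells. Glycolysis genes were higher for 5 and lower for 6 of 22 in cis SSP cells (median -0.02), and for 3 and 16 of 22 in cis cells (-0.42); scaled by total counts, the cis SSP counts were 4 and 11. LDHA, lactate dehydrogenase A, was at 1363, 1207 and 1217 CPM against 1192, 1300.5 and 1155 CPM in cis SSP cells (-0.05, adjusted p = 0.0708), while it fell by 1.15 on that scale in cis cells and the difference was 1.1 ± 0.13 (adjusted p = 0.000454, 12 libraries).

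The genes with the largest changes over the whole table lay both inside and outside the ATF4 pathway list. The 8 with the largest rise, among genes called without the shifted libraries whose groups of 3 did not overlap, were INHBE, SLC7A11, NIBAN1, NUPR1, ATF3, VLDLR, GPR84 and STC2. GPR84, a receptor for medium-chain fatty acids, was at 1.26 to 1.98 CPM and reached 4.28 to 5.24 CPM (1.72 ± 0.22), and NIBAN1, a stress-responsive regulator of translation, went from 6.93, 13 and 11.6 CPM to 45.2, 22.4 and 46.0 CPM (1.88 ± 0.07). The 8 with the largest fall were the nucleosome assembly family gene NAP1L5 (-1.26), RAB26 (-1.24), TAGLN (-1.14), the apical junction gene AJM1 (-1.13), urokinase (PLAU, -1.07), the zinc-finger gene ZNF726 (-1.02), the T-type calcium channel gene CACNA1G (-1.0) and PTOV1-AS2 (-0.97). All of them except TAGLN and RAB26 stayed below 9 CPM in each of the 6 libraries. TAGLN, an actin-binding protein of contractile cells, was at 35.1, 24.4 and 24.7 CPM against 11.8, 14.3 and 10.6 CPM. With carboplatin its mean was 64.4 CPM in complete medium and 17.9 CPM without serine and glycine (log2 -1.83), both above the untreated levels. The larger log2 fall thus began from a higher level. The interaction test of that difference gave -0.63 over 12 libraries (adjusted p = 0.728). Without libraries 25 and 32 it gave -0.69 (adjusted p = 9.45e-06). The secretory-vesicle GTPase RAB26 was at 24.1, 14.4 and 13.5 CPM against 5.30, 10.5 and 6.58 CPM. PTOV1-AS2 is an antisense gene, and the strand setting of the counting is not given in the sources used here.

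Carboplatin-treated cis SSP cells gave the same deprivation contrast in 6 other libraries, each of which stayed within 0.0642 (median log2 ratio) of the other libraries of its condition in every length bin. There 1342 of 13747 genes were called (9.76%), 678 higher and 664 lower, or 507 higher and 877 lower when scaled by total counts. Leaving out 1 library left between 685 and 1394 genes called, with the lowest counts without libraries 28, 29 and 35 (685, 800 and 829), and DESeq2 called 684. Of 13508 genes tested in both, 951 were called in both, which is 19.2% of the genes called without carboplatin and 70.9% of those called with it, and 883 of the 951 (92.8%) had the same direction. The serine enzymes rose again, by 0.79 for PHGDH, 0.74 for PSAT1 and 0.38 for PSPH. PHGDH was at 186 to 191 CPM in complete medium and at 318 to 328 CPM without serine and glycine, and PSAT1 at 559 to 591 CPM and at 925 to 979 CPM. Of 31 ATF4 pathway genes 21 were higher and 0 lower (median 0.41), of 20 cytosolic synthetases 12 were higher and 3 lower (0.20), and of 25 sterol genes 0 were higher and 6 lower (-0.09).

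The deprivation response with carboplatin was set against that without it in a test of their difference, which called 4 of 14231 genes over 12 libraries (0.0281%; 710 at an unadjusted p under 0.05) and 2167 of 14442 without libraries 25 and 32 (15%). The 4 called over 12 libraries had a smaller response with carboplatin; leaving out 1 library left between 1 and 10 genes called, and DESeq2 called 60. INHBE was at 10.8 to 12.6 CPM and at 15.3 to 18 CPM in the treated cells (difference -1.74 ± 0.14, adjusted p = 0.00172), and STC2 at 44.8 to 46.6 CPM and at 72.7 to 74.7 CPM (-0.98 ± 0.09, adjusted p = 0.00479). NPR2, a natriuretic peptide receptor, stood at 22.9 to 24.5 CPM in complete medium and at 48 to 54.0 CPM without serine and glycine in untreated cells, and with it stood at 102 to 106 CPM in complete medium and at 112 to 114 CPM without serine and glycine (-0.98 ± 0.10, adjusted p = 0.00888). SESN2 behaved alike, at 96.7 to 97.8 CPM and 98.4 to 103 CPM with carboplatin (-0.80 ± 0.09, adjusted p = 0.0198). For NPR2 and SESN2 the complete-medium level was thus higher with carboplatin than without. Without libraries 25 and 32, the response was smaller with carboplatin for 23 of 32 ATF4 pathway genes, for 13 of 20 cytosolic synthetases, for 10 of 15 transporters and for all 3 serine enzymes, and larger for 0 genes of these lists.

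In cis cells 10590 of 14122 genes were called (75%). Of 13354 genes tested in both, 4097 were called in both (83.0% of those called in cis SSP and 40.7% of those called in cis cells), and 3074 of the 4097 (75.0%) had the same direction. In the ATF4 pathway 30 of 33 genes were higher and 2 lower in cis cells (median 1.22), beside 5309 higher and 5281 lower of all genes. Without libraries 25 and 32, the difference of response was called for 8341 of all 15057 genes tested (55.4%), 4331 above in cis SSP cells and 4010 below. In that fit it was called for 28 of the 33 ATF4 pathway genes, 14 with the cis SSP value above and 14 with it below. Above were INHBE (1.57), VLDLR (1.42), PCK2 (1.01), GPT2 (0.90), ASNS (0.79), the AP-1 repressor JDP2 (0.79) and STC2 (0.77). Below were PPP1R15A (-1.46), the stress cytokine GDF15 (-1.71), ATF3 (-1.34), NUPR1 (-1.21), DDIT4 (-1.19), ATF5 (-1.06) and SESN2 (-0.97).

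The largest differences of response among genes called in cis SSP cells ran in both directions. KLF4, a zinc-finger transcription factor, was at 3.23 to 4.24 CPM and at 6.74 to 8.31 CPM in cis SSP cells, and at 0.264 to 0.395 CPM and at 17.3 to 19.9 CPM in cis cells (difference -4.77 ± 0.25, adjusted p = 4.50e-06, 12 libraries). LAMP3, a lysosomal membrane protein, reached 183 to 195 CPM in cis -SG but 4.44 to 5.51 CPM in cis SSP -SG cells (-3.37), and ENKUR and PSD3 differed by -3.62 and -3.26. In the other direction, STAC2 (3.37), the secreted phospholipase PLA2G3 (3.03), the homeobox gene MEOX1 (2.89) and KIF20A (2.31) fell far less in cis SSP than in cis cells, or rose. KIF20A was at 139.8 to 151 CPM in cis and at 30.7 to 31.8 CPM in cis -SG cells, against 103 to 146 CPM and 109.6 to 161 CPM in cis SSP and cis SSP -SG cells.

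Markers of the lineage and of other cells were read in the same libraries. Of 13 epithelial and ovarian markers KRT7 and MUC16 were at 0 in all 6 libraries, KRT19, CDH1, PAX8, PAX2, WT1 and ESR1 were under 1 CPM in every one and EPCAM was at 0.652 to 1.32 CPM, whereas the mesenchymal VIM was at 2001 to 3945 CPM and CDH2 at 783 to 1403 CPM. Among the keratins KRT18 was the highest, at 7.24 to 15.8 CPM, and KRT8 was at 0.424 to 1.58 CPM. KRT7, MUC16, PAX8 and WT1, usual markers of ovarian carcinoma, were thus at or near 0 in libraries labelled as an ovarian cancer line. VIM and CDH2 carried nearly all of the list's summed 3197 to 4918 CPM. Of 5 tested, 2 were higher (VIM, 0.42; CDH2, 0.25). Of 8 fibroblast markers FAP was at 0, and the summed level was 3229 to 4021 CPM in cis SSP and 2539 to 3189 CPM in cis SSP -SG libraries, nearly all of it COL3A1. COL3A1 was at 3061, 3871 and 3848 CPM against 3015, 2384 and 3048 CPM (-0.36 ± 0.02) and COL1A1 at 19, 14.6 and 19.5 CPM against 8.26, 8.88 and 10.6 CPM (-0.87 ± 0.16). Of 6 tested, these 2 were lower and 0 higher, beside 17% lower and 18.9% higher of all genes tested. THY1 at 97.9 to 115 CPM (-0.09) and DCN at 22 to 26.9 CPM (-0.04) did not pass the test. The part of the collagen genes in the sterol and p53 results was not tested. All 8 leukocyte markers were under 1 CPM, with summed levels of 0.212 to 0.299 CPM and 0.111 to 0.573 CPM.

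Neither the neighbourhood of PHGDH nor the mitochondrial genome moved with the serine enzymes. Of 54 genes tested within 10 Mb of PHGDH 11 were higher and 11 lower, near the 18.9% higher and 17% lower of all genes tested. Their median was 0.03 and their range ran from -0.84 to 0.33, below the 0.96 of PHGDH. Of 13 respiratory-chain genes of the mitochondrial genome edgeR called 0 in the 4 libraries and 0 in all 6, with 0 at an unadjusted p under 0.05 and 0 called by DESeq2 in both. With carboplatin edgeR called 0 (1 at an unadjusted p under 0.05) and DESeq2 called 1. Their levels varied between libraries of 1 condition, for example from 5638 to 9563 CPM for MT-ND4 in complete medium.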

How the data were processed

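RNA of A2780 cells was sequenced in 36 libraries of 12 conditions; 6 are compared here and 12 others serve for values side by side. Per the labels and the study's methods, the authors aligned single-end reads with STAR to GRCh37.p13 and counted them per gene with HTSeq on GENCODE annotation, depositing raw counts with no normalization; the strand setting and the handling of multiply mapped reads are not given in the sources used here. Libraries were grouped by their treatment label. The deposited table holds 57820 gene rows, of which 55538 matched a symbol in GENCODE's GRCh37 annotation, and 3 rows that name no gene were left out (reads on no feature were 4.21 to 7.00% of the counted reads in the 6 libraries). Total counts were 14455766 to 20062084, which limits the precision of genes under a few CPM; intervals cover the spread between libraries only. The counts of libraries of 1 condition differed by more than sampling noise (mean chi-square per gene 2.74 to 123), so none was counted as a duplicate.

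Counts were tested with edgeR 4.0.16 in R 4.3.3 (TMM, filterByExpr, robust dispersion and quasi-likelihood F test, Benjamini-Hochberg over all genes tested, adjusted p below 0.05); the standard error is the absolute log2 fold change over the square root of F. Differences of response are interaction terms over 12 libraries. DESeq2 1.42.0, other scalings and filters, a trend over exon length, 1 fit of 36 libraries and leaving out libraries were alternatives; a term for libraries 25 and 32, the alternatives of the 4-library fit and library 32 over 25 were added after the data had been seen. The code was tested on simulated counts.

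The comparison, its members and the 23 gene lists (443 genes, 442 matched) were chosen with earlier results of these data known. The rule for named genes took 6 fixed genes, and from each list up to 3 in each direction called both with and without the shifted libraries, or else up to 2 called without them, and up to 2 that were not called. Few genes met it with all 6 libraries, so the 8 genes in each direction with the largest changes and the 4 with the largest differences between lines were taken from the fit without libraries 25 and 32 after its values had been seen, as were the further list members and the genes named for a difference with carboplatin. A mean of at least 50 counts was required of genes taken by size.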

Additional observations from a re-analysis of the deposited data

Results flagged for a closer look

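The response to deprivation differed between cis SSP and cis cells for 2533 genes by the interaction test over 12 libraries. By the same test PSAT1 (log2 difference 1.21, cis SSP minus cis) and SLC1A5 (0.87) rose more in cis SSP cells. STAC2 (3.37), PLA2G3 (3.03), MEOX1 (2.89) and KIF20A (2.31) had the largest positive differences among the genes called in cis SSP cells without libraries 25 and 32, and KLF4 (-4.77), ENKUR (-3.62), LAMP3 (-3.37) and PSD3 (-3.26) the largest negative ones.

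The response in cis SSP cells differed between carboplatin-treated and untreated cells for 4 genes over 12 libraries, each with a smaller response under carboplatin. These were INHBE (log2 difference -1.74), STC2 (-0.98), NPR2 (-0.98) and SESN2 (-0.80). No condition holds 4 libraries, so single libraries were not tested as outliers within their group.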

How the results depend on the processing

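The number of genes called in cis SSP cells rests on how libraries 25 and 32 are treated. It was 3 with all 6 libraries, 4996 without both and 5561 with a term for them, and among the genes of the pathway lists it was 3, 218 and 240. With all 6 libraries DESeq2 called 105 genes (37 of the lists), total-count scaling 1 (1 of the lists), no filter 5, a length trend as an offset 6 (6 of the lists) and 1 fit of 36 libraries 1530 (107 of the lists); leaving out any library gave 0 to 0 genes, also of the lists. Without libraries 25 and 32 requiring a change of 1 or more on the log2 scale left 212 genes and DESeq2 2207, while leaving out each of the 4 libraries gave 3755 to 4513. With carboplatin DESeq2 called 684 genes and leaving out libraries gave 685 to 1394. The difference between cis SSP and cis was called for 8341 genes without libraries 25 and 32 and for 8745 with a term, and the difference with carboplatin for 60 genes by DESeq2, 2167 without both libraries, 2372 with the term and 1 to 10 when a library was left out. In cis cells the count stayed between 9547 and 10590. The cause of these differences was not tested. The log2 fold changes of 12 named genes changed sign when a library was left out of the 6, and these ranges run as follows: LARS2 -0.26 to 0.017, CLSPN -0.65 to 0.076, SLC7A6 -0.34 to 0.23, KIF20A -0.054 to 0.26, SLC36A1 -0.46 to 0.072, EIF2AK4 -0.37 to 0.081, MKI67 -0.36 to 0.43, EIF2AK3 -0.065 to 0.21, FARSA -0.33 to 0.13, CRELD2 -0.67 to 0.032, DCN -0.089 to 0.051 and MT-ND4 -0.32 to 0.014. Signs also changed for MKI67 with total counts (-0.053), a length offset (-0.030) and the term (-0.023), for EIF2AK3 with total counts (-0.020) and a length offset (-0.029), and for MT-ND4 without libraries 25 and 32 (0.0052). No paired analysis was possible because the labels give no replicate numbers that tie libraries across conditions.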
